A study of Malus domestica with 4 samples.

Results

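The comparison described here sets apple cortex held for 24 days at 0.8 kPa oxygen (0.8ox) against apple cortex held for 24 days at 0.4 kPa oxygen (0.4ox). Its members are the genes with at least 10 estimated counts in either condition, 26935 of the 63514 gene models in the table, and 14579 gene models were listed at 0 in both. Of the members, 26934 had counts in both conditions and were tested, and the remaining gene (MDP0000500661) was listed at 0 in 0.8ox.

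Both conditions used detached fruit of the cultivar Granny Smith, picked ripe for the market, kept refrigerated in nitrogen-based atmospheres, and sampled across the inner and outer cortex of the equatorial part. Another condition, T0, was taken from fruit in normoxic air just before the low-oxygen atmospheres began, and a further one (shifted) from fruit moved from 0.4 to 0.8 kPa, for which the labels give no day. TruSeq RNA libraries of 50-base single reads were prepared from 3 fruits per condition according to the methods. The deposited table holds 1 estimated count per condition, merged by the authors, so errors here are the SD that Cuffdiff modelled and not a spread measured between fruits. Each oxygen level had 1 storage chamber, so oxygen and chamber cannot be told apart. T0 differs from 0.8ox and 0.4ox in time of storage as well as in oxygen. No normoxic fruit of the same storage time was sequenced, so these cannot be told apart wherever T0 is set beside them. In bulk tissue, fewer cells of a type and less RNA per cell cannot be told apart either. The gene descriptions used here name no gene that defines cortex, so the tissue label was not checked against a marker.

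Fruit tissue at very low oxygen cannot run respiration at its normal rate. It turns to fermentation, in which pyruvate decarboxylase and alcohol dehydrogenase convert pyruvate to ethanol and glycolysis has to supply more of the ATP. In Arabidopsis the group VII ethylene response factors (ERFs) drive this programme, and their proteins are degraded when oxygen is present. Both atmospheres compared here are far below air, and the question put to the data is which transcripts tell these levels apart.

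The estimated counts summed to 6471124 in 0.8ox, against 5445598 in 0.4ox, and levels are given as CPM, the count divided by such a total and multiplied by 1000000. CPM is not divided by gene length, so it compares conditions within a gene and does not rank genes. A gene was called when its log2 ratio 0.8ox/0.4ox, divided by the standard error (SE) from the deposited variances, gave an adjusted p under 0.001. Of the 26934 genes tested, 1066 (3.96%) were called, 414 (1.54%) higher and 652 (2.42%) lower in 0.8ox. With a further requirement of a change over 2-fold, 917 (3.4%) remained, 341 (1.27%) higher and 576 (2.14%) lower. An unadjusted p under 0.05 was reached by 5259 genes. Scaling to equal totals lowers every log2 ratio by 0.25, and without it 844 genes were higher and 398 lower in 0.8ox. Centring on the median log2 ratio gave 409 higher and 657 lower, and TMM factors of edgeR 409 and 661. The larger direction thus changed only when the unequal totals were left unscaled.

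Most transcripts differed little between the oxygen levels. The log2 ratio lay within 1 of 0 in 91.5% of the genes tested, with a median of 0.01 and with quartiles of -0.29 and 0.28. Among the called genes the median log2 ratio was 1.34 for those higher in 0.8ox and -1.44 for those lower. A log2 ratio above 3 was found in 35 called genes and one below -3 in 45. The genes higher in 0.8ox had a median of 47.3 CPM in 0.8ox, 17.2 CPM in 0.4ox and 41.2 CPM in T0. For the genes lower in 0.8ox the medians were 13.6 CPM in 0.8ox, 39.6 CPM in 0.4ox and 12.9 CPM in T0. In both sets the median of 0.8ox was the one nearer to that of T0, which is given as a description without a test because T0 was no part of the call.

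**Figure D1:**
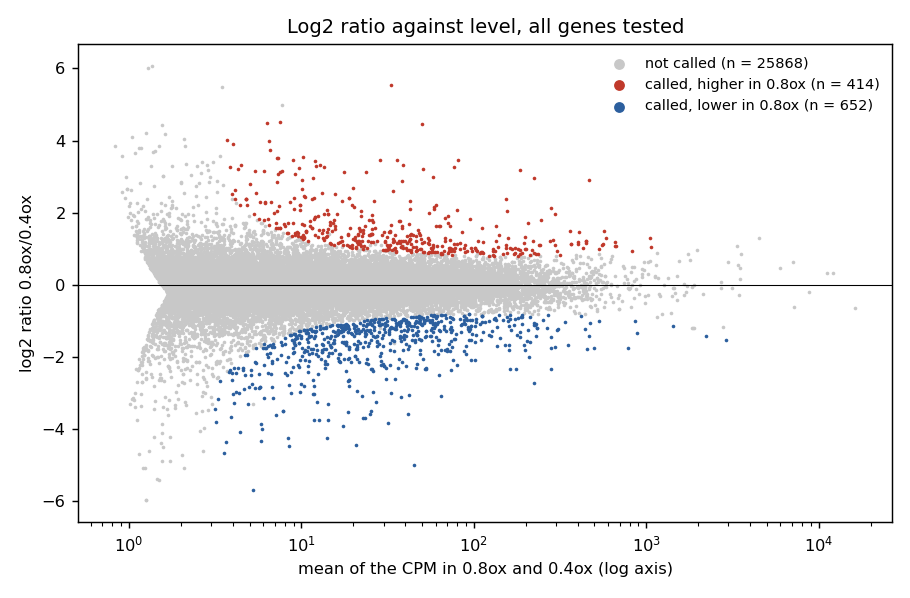
Log2 ratio 0.8ox/0.4ox (vertical axis) against the mean CPM of both conditions (horizontal axis, log scale) for the 26934 genes tested, with 414 genes called higher in 0.8ox in red, 652 called lower in blue and the rest in grey. The called genes leave the grey band on both sides, and the band is widest at low CPM.

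How often a gene was called depended on its count. None of the 4722 genes whose larger count was under 20 was called, and the median SE there was 0.60. The share called was 0.649% from 20 to 50 counts, 3.5% from 50 to 100, 6.33% from 100 to 300 and 8.88% from 300 to 1000. It was 11.4% from 1000 to 3000 counts and 20% from 3000 to 10000, and 3 of the 36 genes above 10000 counts were called. The median SE was lowest, at 0.20, between 300 and 3000 counts, and was 0.34 above 10000. The direction moved with the level as well, but only up to 10000 counts. From 20 to 50 counts 8 of the called genes were higher and 34 lower in 0.8ox. From 1000 to 3000 counts 51 were higher and 52 lower, and from 3000 to 10000 counts 23 were higher and 9 lower. All 3 called genes above 10000 counts were lower. No log2 ratio nearer to 0 than 0.80 was called, so lesser differences could not be detected with these variances.

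**Figure D2:**
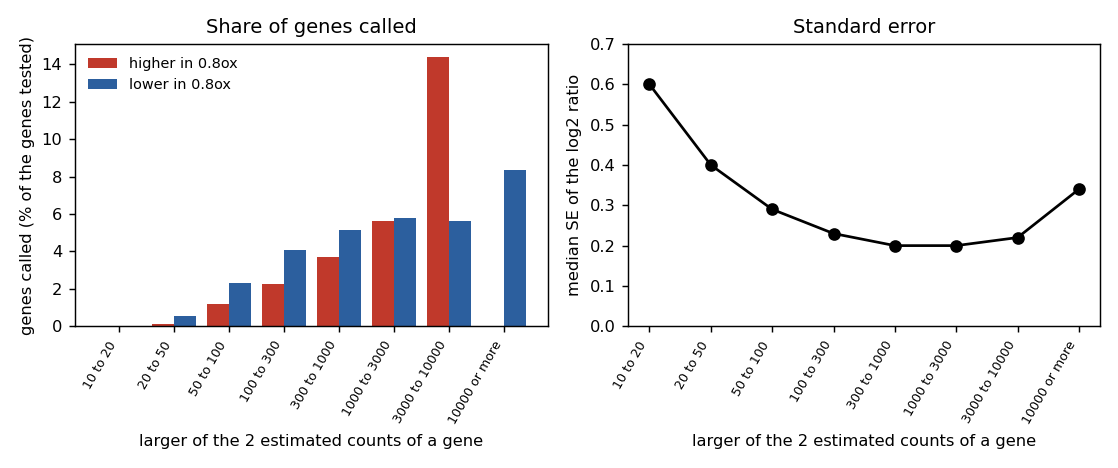
Left, genes called higher (red) and lower (blue) in 0.8ox as a percentage of the genes tested, by the larger of the 2 estimated counts of a gene. Right, the median SE of the log2 ratio in the same classes, which is 0.60 for genes of 10 to 20 counts, 0.20 from 300 to 3000 counts and 0.34 above 10000 counts.

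Many apple genes have near-identical copies, and a second table of the authors, the one with the shifted fruit, gives 0.8ox far lower counts for some genes. MDP0000407572, for example, had 62.8 counts in 0.8ox in the main table and 0.263 in the second, so the second table also holds fractions. A loss of count there was taken as a sign of reads shared with other genes. This was not tested, and all statements on reads of a gene's own rest on it. Where a gene kept at least 50% of its count in that table it is said to have mostly reads of its own. This failed for 366 (34.3%) of the called genes and for 37.2% of the genes tested, so by this measure shared reads were not more frequent among the called genes. The 1066 called genes made up 1050 distinct sets of counts.

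Transporters, acyl-transferases and a polygalacturonase filled most of the highest places among the genes higher in 0.8ox. The gene with the highest ratio among those with at least 100 counts was the mitochondrial-type dicarboxylate/malate carrier MDP0000309741. Its level was 64.6 ± 5.66 CPM (modelled SD) in 0.8ox and 1.39 ± 0.505 CPM in 0.4ox, a 46.5-fold difference (log2 ratio 5.54, SE 0.54, adjusted p = 7.9e-22), while T0 held 0.751 CPM. The reads were its own. In the table with the shifted fruit this gene had 9.1 CPM after the shift and 91.2 CPM in 0.8ox.

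Most gene names come from the stretch of the study's gene table used here, which holds only genes with high ratios in 0.8ox or listed at 0 in one condition. The 194 called genes with such a description were all higher in 0.8ox because of that choice, so neither their direction nor the number called in a family is a result. Levels of single genes of these families are described, and members of the same families that are lower in 0.8ox are not covered. Of the dicarboxylate carriers described, 7 are tonoplast dicarboxylate transporters, which move malate, the main acid of apple flesh, into and out of the vacuole. MDP0000813710 among them had 248.9 ± 20.3 CPM in 0.8ox and 60.8 ± 6.98 CPM in 0.4ox, both far under the 2067.7 CPM of T0. MDP0000147335 had 129.0 ± 10.5 CPM in 0.8ox and 30.6 ± 3.70 CPM in 0.4ox, with 50.8 CPM in T0, so that 0.8ox and 0.4ox lay on either side of T0. MDP0000271175 and MDP0000307325 had 95.2 and 96 CPM in 0.8ox and 22.2 and 21.7 CPM in 0.4ox. Their counts in the second table were under 5% of the main ones.

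Sulfate transporter 3;1 moves sulfate across membranes, and 4 of its genes were in the stretch. MDP0000231619 had 333.9 ± 27.7 CPM in 0.8ox, 36.4 ± 4.86 CPM in 0.4ox and 64 CPM in T0, a 9.18-fold difference between the oxygen levels. It had mostly reads of its own. MDP0000308205 had 65.6 ± 5.61 CPM in 0.8ox and 5.99 ± 1.11 CPM in 0.4ox. The other two, MDP0000311618 and MDP0000356821, rested mostly on shared reads. In these 4 genes the level in T0 lay between those of 0.8ox and 0.4ox, a description without a test.

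Nitrogen carriers showed differences of similar size. Nitrate transporter 1.5 (MDP0000138927), which in Arabidopsis loads nitrate into the xylem, had 70.9 ± 6.08 CPM in 0.8ox and 7.14 ± 1.24 CPM in 0.4ox, beside 48.7 CPM in T0. Amino acid transporter 1 (MDP0000157111) had 13.1 ± 1.57 CPM in 0.8ox and 1.57 ± 0.537 CPM in 0.4ox. The amino acid permease MDP0000134278 had 22.8 ± 2.36 CPM in 0.8ox and 5.38 ± 1.04 CPM in 0.4ox. A glutamine-dependent asparagine synthase (MDP0000096208) was 2.97-fold higher, with 57.3 ± 5.06 CPM in 0.8ox against 19.3 ± 2.53 CPM in 0.4ox, yet T0 held 1164.0 CPM.

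The sugar carriers described had mostly reads of their own. Tonoplast monosaccharide transporter 3 (MDP0000250193), which loads hexoses into the vacuole, had 16.5 ± 1.83 CPM in 0.8ox, 1.95 ± 0.599 CPM in 0.4ox and 0.0673 CPM in T0. Polyol/monosaccharide transporter 5 (MDP0000940086), whose Arabidopsis relative carries sorbitol-like polyols and hexoses, had 108.7 ± 8.92 CPM in 0.8ox and 33.4 ± 3.95 CPM in 0.4ox. The ABC protein MDP0000219021, described as non-intrinsic ABC protein 14, had 138.9 ± 11.3 CPM in 0.8ox, 14.4 ± 2.0 CPM in 0.4ox and 5.55 CPM in T0. Sucrose phosphate synthase 3F (MDP0000783676), an enzyme of sucrose synthesis, had 258.0 ± 21.1 CPM in 0.8ox and 50 ± 5.66 CPM in 0.4ox, against 553.0 CPM in T0.

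Acyl-transferases of the HXXXD type, a family that includes the alcohol acyl-transferases making fruit esters, filled 7 of the 15 highest places. None of these 7 genes had mostly reads of its own, so the places are not 7 separate measurements. The 19 called genes of this list had a median of 22 CPM in 0.8ox, 2.33 CPM in 0.4ox and 26.6 CPM in T0. MDP0000637737 had 148.1 ± 12.2 CPM in 0.8ox, 13.5 ± 1.89 CPM in 0.4ox and 283.1 CPM in T0, an 11-fold difference between the oxygen levels. MDP0000185723 had 91.8 ± 8.22 CPM in 0.8ox and 9.97 ± 1.56 CPM in 0.4ox. For MDP0000637737 and MDP0000185723 the count in the second table was 41.3% and 35.9% of the main one. Of the 19 called genes, 3 had mostly reads of their own. The 19 genes are therefore not 19 separate measurements.

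**Figure D3:**
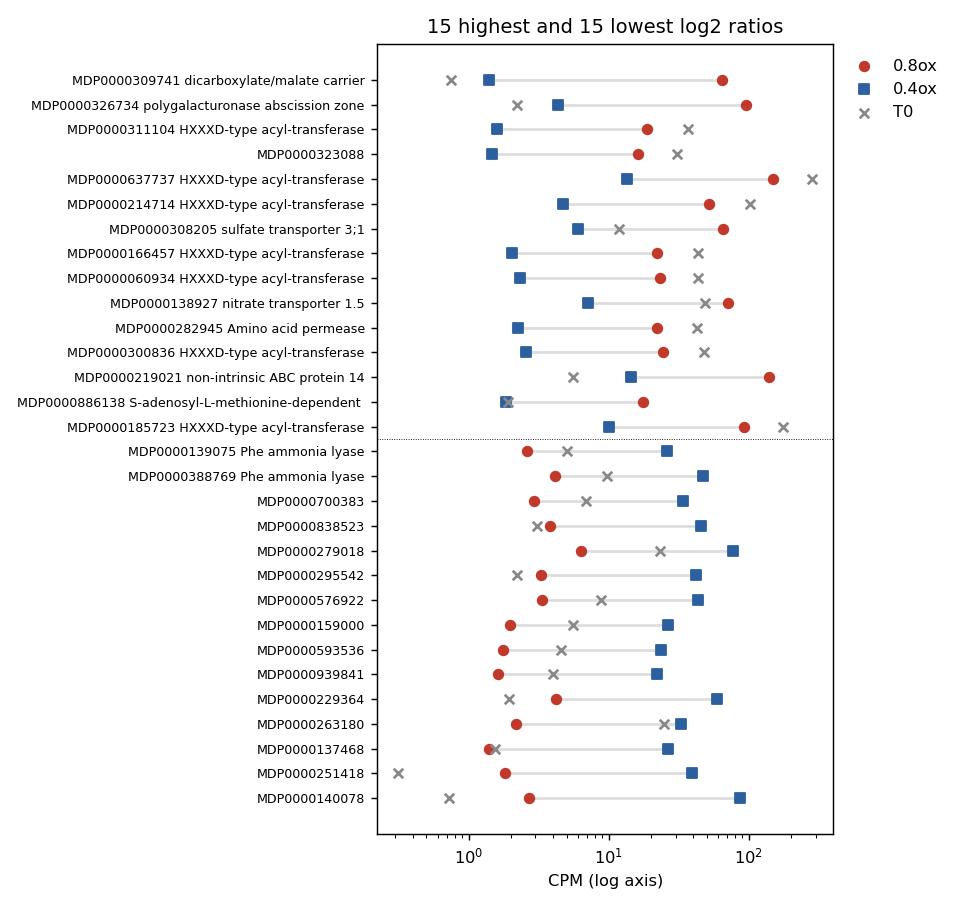
CPM (log axis) in 0.8ox (red circles), 0.4ox (blue squares) and T0 (grey crosses) of the 15 called genes with the highest and the 15 with the lowest log2 ratio 0.8ox/0.4ox, where the larger count was 100 or more; a grey line joins 0.8ox and 0.4ox. The upper 15 range between 16.3 and 148.1 CPM in 0.8ox and between 1.39 and 14.4 CPM in 0.4ox, and the lower 15 between 1.4 and 6.35 CPM in 0.8ox and between 22.1 and 86.7 CPM in 0.4ox.

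The polygalacturonase MDP0000326734, an enzyme that cuts pectin in the cell wall, had 96.1 ± 8.04 CPM in 0.8ox and 4.38 ± 0.919 CPM in 0.4ox (log2 ratio 4.46, SE 0.33, adjusted p = 7.08e-39), with 2.23 CPM in T0. After the shift its level was 3.25 CPM, against 137.3 CPM for 0.8ox in the same table. Other wall genes differed less. Extensin 3 (MDP0000750914), a structural wall protein, had 20.8 CPM in 0.8ox and 2.65 CPM in 0.4ox, and the fasciclin-like arabinogalactan protein MDP0000658332 had 69.2 CPM in 0.8ox and 16 CPM in 0.4ox. In T0 the fasciclin-like gene was at 179.6 CPM.

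Genes of the wall and of secondary metabolism were also found among those lower in 0.8ox. The names in this paragraph and the next go back to heat maps for which the study had picked genes on these samples, were not checked against a text table, and carry no count over a list. A pectin acetylesterase gene (MDP0000756536), whose enzyme removes acetyl groups from pectin, had 8.68 CPM in 0.8ox, 39.8 CPM in 0.4ox and 3.04 CPM in T0, on 14.1% reads of its own. The COBRA-like gene MDP0000288732, of a family tied to cellulose deposition, had 17.5 CPM in 0.8ox, 51.2 CPM in 0.4ox and 27.5 CPM in T0, on its own reads. The xyloglucan endotransglucosylase/hydrolase gene MDP0000310152, which remodels hemicellulose, went the other way, with 906.4 CPM in 0.8ox, 429.9 CPM in 0.4ox and 441.0 CPM in T0.

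Phe ammonia lyase takes phenylalanine into the phenylpropanoid pathway. Its gene MDP0000787168, with mostly reads of its own, had 128.1 ± 10.6 CPM in 0.8ox, 433.5 ± 50.5 CPM in 0.4ox and 136.9 CPM in T0 (log2 ratio -1.76, SE 0.21, adjusted p = 4e-15). The level in 0.8ox was thus within its modelled SD of that in T0, a value from a separately normalized table, and 0.4ox stood apart from both. In the table with the shifted fruit it had 457.2 CPM after the shift and 179.4 CPM in 0.8ox. MDP0000388769 had 4.12 ± 0.798 CPM in 0.8ox and 46.8 ± 6.32 CPM in 0.4ox, and MDP0000668828 had 8.72 ± 1.17 CPM in 0.8ox and 26.6 ± 3.32 CPM in 0.4ox. Cinnamoyl CoA reductase (MDP0000322755), which leads to lignin, had 57 ± 4.96 CPM in 0.8ox, 121.8 ± 13.1 CPM in 0.4ox and 56.8 CPM in T0. Acetoacetyl-CoA thiolase (MDP0000231084), at the start of the mevalonate pathway, had 67.2 ± 5.77 CPM in 0.8ox and 138.0 ± 16.9 CPM in 0.4ox, with 262.0 CPM after the shift and 89.1 CPM for 0.8ox in that table.

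Dehydrins protect membranes and proteins when water is short. Dehydrin xero 1 (MDP0000868045) had 828.1 ± 78.6 CPM in 0.8ox, 109.5 ± 12.9 CPM in 0.4ox and 550.4 CPM in T0, and after the shift it had 131.7 CPM, against 622.1 CPM in 0.8ox. A phosphatase gene described as highly induced by abscisic acid (MDP0000304124) had 14.2 ± 1.66 CPM in 0.8ox, 2.87 ± 0.726 CPM in 0.4ox and 41.1 CPM in T0. Among genes of photosynthesis in the stretch, rubisco activase (MDP0000223905) had 167.7 ± 13.6 CPM in 0.8ox and 56.7 ± 6.43 CPM in 0.4ox, and a chlorophyll-binding protein (MDP0000840536) had 48.4 ± 4.42 CPM in 0.8ox and 17.3 ± 2.39 CPM in 0.4ox. In T0 these 2 genes held 706.6 and 544.4 CPM, so 0.8ox lay between 0.4ox and T0. Genes of photosynthesis that are lower in 0.8ox were not described here, so no direction of the group is given.

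The MLP-like genes MDP0000288293 and MDP0000294379, of a family of latex-type proteins, are the called members that the stretch holds, and the rest of the family was not described here. They had 459.0 and 470.2 CPM in 0.8ox, 104.8 and 120.3 CPM in 0.4ox and 9.59 and 12.6 CPM in T0. Their counts in the second table were 44.1% and 38.4% of the main ones. Aldehyde dehydrogenases can oxidise acetaldehyde, the product of pyruvate decarboxylase, and 3 such genes, picked by the study on these samples, were 2.04-, 2.14- and 2.21-fold higher in 0.8ox. Other aldehyde dehydrogenase genes were not described here, so no direction of the family is given. The one with mostly its own reads, MDP0000211987, had 325.5 ± 27.0 CPM in 0.8ox, 152.3 ± 16.4 CPM in 0.4ox and 231.2 CPM in T0.

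Transcription factors were examined with the 63 genes that the study lists as differing between the oxygen levels. They were chosen on these samples, so that all 63 were called is a description, 18 higher and 45 lower in 0.8ox. The median log2 ratio of the 63 was -1.23. Among the 44 with mostly reads of their own, 11 were higher and 33 lower, and without scaling 47 of the 63 were called. All members of the families of 3 or more genes were lower in 0.8ox for WRKY (4), CONSTANS-like (4) and GRAS (3), and all were higher for the B3-domain family (3). Only 1 of the WRKY, 2 of the CONSTANS-like and 1 of the B3-domain genes had mostly reads of their own, so these are not separate measurements. Without scaling, 1 WRKY, 3 CONSTANS-like and 2 GRAS genes were no longer called.

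Auxin-related regulators went both ways. Aux/IAA proteins repress auxin response factors and are broken down when auxin is present. The Aux/IAA gene MDP0000223496 had 9.04 ± 1.20 CPM in 0.8ox, 75.2 ± 8.27 CPM in 0.4ox and 3.05 CPM in T0 (log2 ratio -3.06, SE 0.25, adjusted p = 2.26e-31). It was at 57.4 CPM after the shift and at 12.8 CPM in 0.8ox in that table. MDP0000270789, described as auxin-induced protein 13, had 6.92 CPM in 0.8ox, 26.3 CPM in 0.4ox and 0.129 CPM in T0. In contrast MDP0000284467, with the same description, had 47.7 CPM in 0.8ox and 17.2 CPM in 0.4ox, but 1.08% reads of its own. Of the auxin response factors, MDP0000268306 had 26.3 CPM in 0.8ox and 66.7 CPM in 0.4ox, while MDP0000211459 had 33.3 CPM in 0.8ox and 12.2 CPM in 0.4ox. GH3 enzymes bind auxin to amino acids, and the GH3 gene MDP0000209432 had 35.5 CPM in 0.8ox and 8.56 CPM in 0.4ox.

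Homeobox factors shape organs and growth, and all 6 of those listed had mostly reads of their own. Homeobox protein 16 (MDP0000736852) had 137.4 ± 11.2 CPM in 0.8ox, 455.4 ± 53.6 CPM in 0.4ox and 73.2 CPM in T0. BEL1-like homeodomain 6 (MDP0000248279) was the only one of the 6 that was higher, with 759.6 ± 70 CPM in 0.8ox against 355.5 ± 40.5 CPM in 0.4ox, and 273.9 CPM in T0. A CheY-like response regulator of the GARP family (MDP0000248863) had 166.2 ± 13.5 CPM in 0.8ox, 533.3 ± 70.4 CPM in 0.4ox and 35.6 CPM in T0. WRKY33 (MDP0000708692), which acts in defence in Arabidopsis, had 1.75 ± 0.519 CPM in 0.8ox and 9.64 ± 1.59 CPM in 0.4ox. The VQ motif gene MDP0000346969, of a family of WRKY partners, had 5.8 ± 0.947 CPM in 0.8ox, 18.5 ± 2.42 CPM in 0.4ox and 24 CPM in T0.

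On the other side, nuclear factor Y subunit B8 (MDP0000320719) had 57 ± 5.01 CPM in 0.8ox, 16.8 ± 2.23 CPM in 0.4ox and 2.86 CPM in T0. An AGAMOUS-like MADS box gene (MDP0000212925) had the highest ratio of all the transcription factors. It had 12.3 ± 1.48 CPM in 0.8ox, 0.77 ± 0.376 CPM in 0.4ox and 0.0673 CPM in T0, and 2.32 CPM after the shift against 17.6 CPM in 0.8ox.

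**Figure D4:**
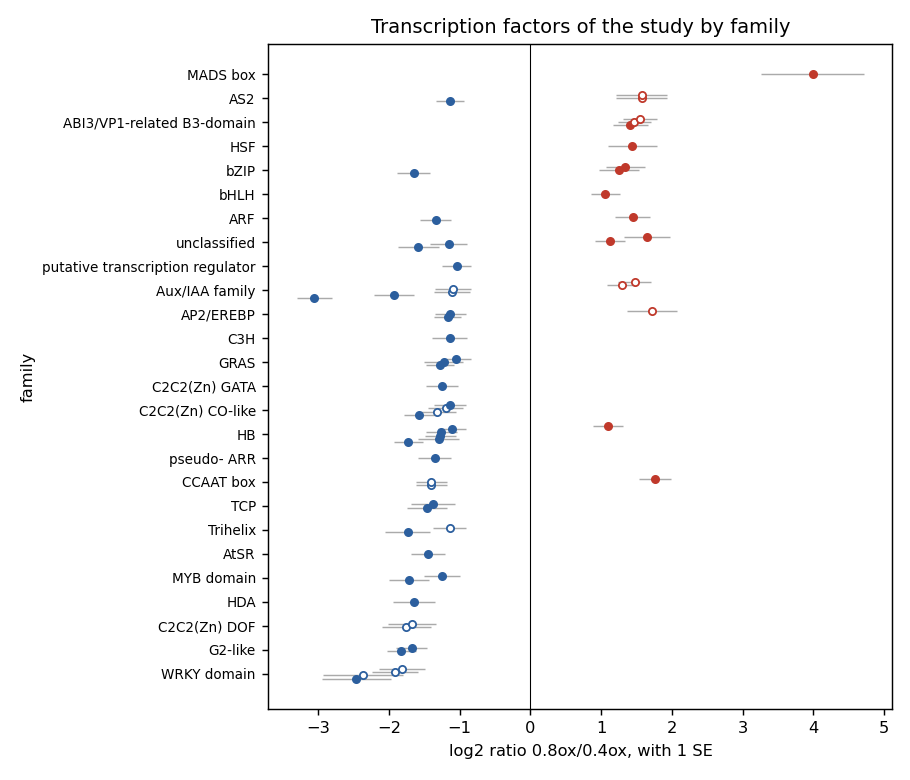
Log2 ratio 0.8ox/0.4ox with 1 SE of the 63 transcription factors by family; red is higher and blue lower in 0.8ox, and open symbols are genes with under 50% reads of their own. The log2 ratios reach from -3.06 for an Aux/IAA gene to 3.99 for the MADS box gene, and 45 of the 63 lie to the left of 0.

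Genes of the low-oxygen response were examined with the study's RT-qPCR primers. Of the 17 genes in that list, beside the reference gene, 16 were tested and 3 were called, against 3.96% of all genes tested. All 3 were lower in 0.8ox, and the median log2 ratio of the 16 was -0.31, against 0.01 over all genes tested. With the variance divided by the 3 libraries 8 of the 16 were called, beside 4342 of all 26934 genes tested. ACC synthase (MDP0000413933) was not tested, with 1.28 CPM in 0.8ox and 1.09 CPM in 0.4ox. The reference gene (MDP0000375455) had 121.9 ± 9.97 CPM in 0.8ox and 124.7 ± 13.3 CPM in 0.4ox (log2 ratio -0.03, or 0.22 without scaling).

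Of the 5 fermentation genes with a primer pair, none passed the threshold, which 3.96% of all genes tested passed. Other loci of these enzymes were not examined, and the values do not show that fermentation transcripts were alike. Pyruvate decarboxylase (MDP0000800945) had 5697.1 ± 981.2 CPM in 0.8ox and 8762.0 ± 2540.4 CPM in 0.4ox, and the modelled errors overlap (log2 ratio -0.62, SE 0.49). T0 held 89.5 CPM. Alcohol dehydrogenase (MDP0000594290) had 184.0 ± 14.9 CPM in 0.8ox and 250.2 ± 27.9 CPM in 0.4ox, with 0.222% reads of its own. The log2 ratios were -0.17 (SE 0.21) and -0.01 (SE 0.23) for the lactate dehydrogenases MDP0000568449 and MDP0000143956, and -0.49 (SE 0.22) for alanine aminotransferase (MDP0000319263). Without scaling both lactate dehydrogenases had ratios above 0, at 0.08 and 0.24.

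For the entry of carbohydrates into glycolysis, sucrose synthase (MDP0000250070) had 757.7 ± 70.3 CPM in 0.8ox and 728.5 ± 92.8 CPM in 0.4ox, and the beta-amylase 6 genes MDP0000142134 and MDP0000764433 had log2 ratios of 0.25 (SE 0.24) and 0.16 (SE 0.28). MDP0000131308 alone was called, with 39.8 ± 3.66 CPM in 0.8ox, 113.1 ± 12.2 CPM in 0.4ox and 3.58 CPM in T0 (log2 ratio -1.51, SE 0.20). The primer list names it phosphofructokinase, which commits sugar to glycolysis, while the text of the study describes this identifier as alpha-amylase-like, so its enzyme is uncertain here. The alpha-amylase-like gene MDP0000212372 had 19 ± 2.04 CPM in 0.8ox, 7.68 ± 1.24 CPM in 0.4ox and 52.7 CPM in T0.

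ACC oxidase (MDP0000195885), which makes ethylene with oxygen as a substrate, had 6460.4 ± 1177.1 CPM in 0.8ox, 2610.5 ± 475.3 CPM in 0.4ox and 107.1 CPM in T0. Its log2 ratio of 1.31 (SE 0.37, adjusted p = 0.00768) did not pass the threshold, although it was close to the median of 1.34 of the genes called higher. Genes above 10000 counts, as this one, had a median SE of 0.34. Without scaling it was called (log2 ratio 1.56, adjusted p = 0.000654). Of the described genes, ethylene response sensor 1 (MDP0000288468), a receptor, had 29.3 ± 2.86 CPM in 0.8ox and 11.8 ± 1.70 CPM in 0.4ox, and the second copy, MDP0000242413, rested on shared reads.

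**Figure D5:**
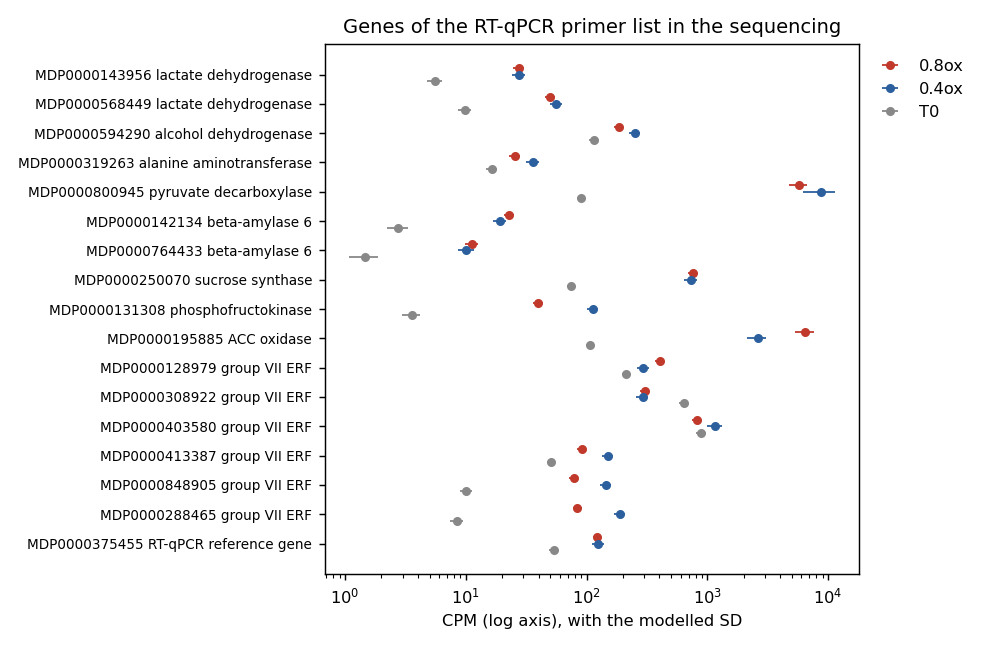
CPM (log axis) with the modelled SD in 0.8ox (red), 0.4ox (blue) and T0 (grey) of the 16 tested genes of the RT-qPCR primer list and the reference gene. The widest gaps between red and blue are at MDP0000131308 (2.84-fold), ACC oxidase (2.47-fold) and MDP0000288465 (2.26-fold).

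Of the 6 group VII ERFs, 2 were called, against 3.96% of all genes tested. MDP0000288465 had 83.8 ± 7 CPM in 0.8ox, 189.0 ± 20.5 CPM in 0.4ox and 8.38 CPM in T0 (log2 ratio -1.17, SE 0.20, adjusted p = 2.03e-07). The study pairs it with the Arabidopsis gene HRE2, a group VII ERF that is itself induced by low oxygen. MDP0000848905 had 78.4 ± 6.58 CPM in 0.8ox, 143.9 ± 15.4 CPM in 0.4ox and 10.1 CPM in T0, but none of its count was its own and it was not called without scaling (log2 ratio -0.63, adjusted p = 0.0148). MDP0000413387 had 91.6 ± 7.69 CPM in 0.8ox and 150.4 ± 16.2 CPM in 0.4ox and did not pass (adjusted p = 0.00543). The remaining ERFs had log2 ratios of -0.49 (SE 0.24) for MDP0000403580, 0.06 (SE 0.20) for MDP0000308922 and 0.47 (SE 0.20) for MDP0000128979.

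The primers that the study designed for 4 of these ERFs are printed here because each pair shares a stretch between 2 genes whose counts are compared above. The capitals mark the longest run of bases common to both primers, 11 bases in the pair of reverse primers and 15 bases in the pair of forward primers.
MDP0000288465 reverse primer: TTGAGTCGGTGcgattaacc
MDP0000848905 reverse primer: ggaaTTGAGTCGGTGtgagtagtt
MDP0000308922 forward primer: cTTCTGCAAAGCGTTCtgtg
MDP0000403580 forward primer: TTCTGCAAAGCGTTCcatc

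In the count table, MDP0000308922 and MDP0000403580 both had mostly reads of their own. MDP0000848905 had none, so its lower level in 0.8ox was not measured apart from other loci. Whether shared primer bases go with shared reads was not tested.

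A pair of further regulators tied to low oxygen in Arabidopsis was lower in 0.8ox. LBD41 (MDP0000881409) belongs to the core hypoxia response of that species and had 100.5 ± 8.39 CPM in 0.8ox, 221.3 ± 24.6 CPM in 0.4ox and 12.8 CPM in T0. The trihelix gene MDP0000429824, matched by the study to HRA1, which restrains a group VII ERF in Arabidopsis, had 14.8 ± 1.69 CPM in 0.8ox, 32.7 ± 3.85 CPM in 0.4ox and 0.314 CPM in T0, with 41.6% reads of its own, and it was not called without scaling (adjusted p = 0.00275). In these genes both 0.8ox and 0.4ox lay far above T0, which differs in storage time as well. The level in 0.8ox was 2.2-fold lower than in 0.4ox for LBD41 and 2.21-fold lower for the trihelix gene. MDP0000288465, at 2.26-fold, is in the same list, so the likeness of these values is no independent result.

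Leaving aside genes whose larger count was under 100, the 3 lowest ratios belonged to genes without a name here. MDP0000140078 had 2.71 ± 0.647 CPM in 0.8ox, 86.7 ± 9.80 CPM in 0.4ox and 0.719 CPM in T0, a 32-fold difference (log2 ratio -5.00, SE 0.38, adjusted p = 1.04e-35). MDP0000251418 had 1.83 ± 0.532 CPM in 0.8ox and 39.4 ± 4.66 CPM in 0.4ox. MDP0000137468 had 1.4 ± 0.465 CPM in 0.8ox, 26.6 ± 3.90 CPM in 0.4ox and 1.54 CPM in T0, on reads of its own. Over the 15 lowest genes the median was 2.71 CPM in 0.8ox, 39.4 CPM in 0.4ox and 4.57 CPM in T0, and 8 of the 15 had mostly reads of their own.

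In the fruit moved from 0.4 to 0.8 kPa most of these lowest genes were above their 0.8ox level of the same table. MDP0000140078, for example, had 40.6 CPM after the shift and 2.48 CPM in 0.8ox. MDP0000229364 was at 0 in both. MDP0000137468 was at 101.4 CPM after the shift and at 1.99 CPM in 0.8ox in the same table. MDP0000279018 was at 126.1 CPM after the shift and at 8.79 CPM in 0.8ox. Among those with counts there, only MDP0000263180 and MDP0000700383 were close to 0.8ox. The shifted fruit had 3.03 and 4.32 CPM, against the 3.14 and 4.24 CPM of 0.8ox. MDP0000263180 also had a high level in T0, 24.8 ± 2.52 CPM beside 2.19 ± 0.582 CPM in 0.8ox and 32.8 ± 3.93 CPM in 0.4ox. These values stand side by side without a test.

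A few called genes had 3 counts or fewer in one condition, 4 of them in 0.8ox and 3 in 0.4ox. Their ratios are given with a 95% binomial interval, from counts rounded to whole numbers. The interval treats estimated counts as if they were raw reads, so it is only a rough guide to counting error and covers no other error. The oxygenase gene MDP0000436890, of the class that uses iron and 2-oxoglutarate together with oxygen, had 1.28 counts in 0.8ox and 55.7 counts in 0.4ox and was 51.6-fold lower, with an interval between 11.5 and 2674.8. It had 20 CPM after the shift and 0.284 CPM in 0.8ox in that table. The RING-H2 finger gene MDP0000612469 had 77.9 counts in 0.8ox and 2.9 counts in 0.4ox and was 22.6-fold higher, with an interval between 7.22 and 108.4.

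Of the genes with the most counts, the 10 of each condition with several in both, 1 was called. The share called was 3.96% over all genes tested, and 3 of the 36 genes above 10000 counts were called. The count is therefore given as a description. MDP0000251253, for which no name is used here, had 1484.4 ± 163.0 CPM in 0.8ox, 4320.8 ± 908.1 CPM in 0.4ox and 79.3 CPM in T0 (log2 ratio -1.54, SE 0.34, adjusted p = 0.00021). The gene with the most counts in 0.4ox, MDP0000236092, had 12731.8 ± 1983.3 CPM in 0.8ox and 19979.4 ± 5608.5 CPM in 0.4ox, which did not pass. Above 10000 counts the smallest log2 ratio called was 1.13 in size.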

How the data were processed

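RNA of Granny Smith apple cortex was sequenced in 0.8ox, 0.4ox, T0 and a shifted sample. Per the methods, reads were cleaned with ERNE and placed on the apple genome v1.0 by TopHat2, which runs Bowtie2, dropping reads that mapped more than once. Cuffdiff then gave the estimated counts that the authors deposited, 1 per gene and condition from 3 merged libraries, beside modelled variances. Many counts nevertheless include fractions of a read.

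The counts of 0.8ox and 0.4ox were scaled to equal totals. Log2 ratios were divided by their SE (delta method, variance undivided), read against a normal distribution in a two-sided test, and p-values were adjusted by Benjamini-Hochberg over all 26934 genes that reached 10 counts in 0.8ox or 0.4ox and were at 0 in neither. The p-values are therefore model-based, with no replicate check. Python 3.11.15, numpy 2.4.6, scipy 1.17.1 and, for alternatives, edgeR 4.0.16 in R 4.3.3 were used. The values of the shifted sample were normalized in a separate table and are set only beside the 0.8ox values of that table. T0 values also come from a separate table, the one that compares T0 with 0.4ox. They were brought to CPM with the T0 total of that table and are set beside 0.8ox and 0.4ox without a test.

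Genes named are the 15 highest and 15 lowest ratios among called genes with at least 100 counts, genes named by the study, called genes of described families, genes at 3 counts or fewer, and the 10 genes with the most counts per condition. Members and lists were chosen with earlier results of these data known. Gene names are the study's own, from its text, its tables or, for phenylpropanoid, mevalonate and some wall genes, its heat maps as read earlier. Alternatives changed the scaling, variance, minimum count, threshold, test and treatment of shared reads.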

Additional observations from a re-analysis of the deposited data

How the results depend on the processing

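No paired analysis was possible because each condition has 1 merged value, and no replicate could be left out. Leaving the unequal totals unscaled reversed the larger direction, while median centring and TMM factors kept it. The main scaling moves all log2 ratios by -0.25, and with no scaling 844 genes were higher and 398 lower in 0.8ox (653 and 354 over 2-fold), so 68% of the calls were higher in place of 38.8%. Without scaling 4 named genes changed sign, the reference gene MDP0000375455 at 0.22, the lactate dehydrogenases MDP0000143956 and MDP0000568449 at 0.24 and 0.08, and MDP0000126946 at 0.04, none of them called, while MDP0000195885 (ACC oxidase) was called, 25 named genes such as MDP0000848905 and MDP0000429824 no longer were, and 47 of the 63 transcription factors remained called.

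With the variance divided by the 3 libraries, 4342 genes were called (1928 higher, 2414 lower; over 2-fold 1807, 659 and 1148), with 8 of the 16 RT-qPCR genes. At an adjusted p under 0.05 the calls were 2492 (1047 higher, 1445 lower; over 2-fold 1411, 529 and 882), with 5 RT-qPCR genes. Restricted to genes with mostly reads of their own, 703 were called (274 higher, 429 lower; over 2-fold 588, 219 and 369), with 43 in the described families, because fewer genes were tested. The counts moved by less than 1.5 times with median centring, TMM factors, the dispersion variance alone, no minimum or a minimum of 50 counts, a pseudocount of 1, the exact test of edgeR (1140 called, 1063 of them shared) and identical counts counted once. Without a minimum count 9 named genes were no longer called, among them the WRKY gene MDP0000652760.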
